A study of Mus musculus with 6 samples.

Results

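The CCR8, CCR4 and CCR3 chemokine axes were followed in RNA of whole B16-F10 tumors through 9 genes, taken by symbol from the 21358 entries of the deposited FPKM table. They are the ligand *Ccl1* and its receptor *Ccr8*, the ligands *Ccl17* and *Ccl22* and their receptor *Ccr4*, the eotaxins *Ccl11* and *Ccl24*, and the chemokines *Ccl6* and *Ccl9*. All 9 were listed and all 9 reached the mean of 0.1 FPKM over the 6 tumors needed for the test, as did 14172 entries in all. *Ccr4* reached it only through its level in ACT + NKTR-214.

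The 6 tumors came from C57BL/6 hosts bearing subcutaneous tumors of B16-F10, a mouse melanoma line with the antigen gp100. Every host was given 500 cGy of whole-body irradiation and then, once tumors measured at least 150 mm3, 2000000 peptide-activated splenocytes of pmel-1 mice, whose CD8 T cells bear a transgenic receptor for gp100. One group then had IL-2 into the peritoneum, 3 daily doses of 0.4 mg/kg per 9-day cycle, and the other had NKTR-214, a pegylated IL-2 whose chains are released over time, into a vein, 1 dose of 0.8 mg/kg per cycle. Host mice of the study were females aged 6 to 8 weeks, and tumors were taken at day 12, 3 per group with 1 library each, so that no untreated tumor enters the comparison. RNA of a whole tumor mixes melanoma, stromal and immune cells, and fewer cells of a type cannot be told apart from less RNA per cell. The melanocyte gene *Pmel*, which encodes gp100, averaged 1416 FPKM (SD 163, n = 3) after IL-2 and 763 FPKM (SD 136, n = 3) after NKTR-214, so that melanoma RNA was present in both groups.

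Chemokines are small secreted proteins that direct leukocytes through G protein-coupled receptors. CCR4 and CCR8 are found on regulatory T cells and on T cells of type 2 responses, and CCR3 is the receptor of eosinophils for the eotaxins. CCL17 and CCL22 are made by dendritic cells and by macrophages exposed to IL-4 or IL-13, while CCL6 and CCL9 are mouse chemokines of myeloid cells that act through CCR1.

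FPKM is the number of fragments scaled for exon length and for the mapped total of the library. It does not adjust for differences in RNA composition between libraries, so counts under other scalings are given below. The steps between low values gave the reads behind them. Library totals lay between 0.877 and 1.03 times that of ACT + IL-2 replicate 1, so that depth was alike in both groups. The tumors of both treatments were tested on log2(FPKM + 1) by limma with Benjamini-Hochberg adjustment over the 14172 genes tested, and a gene is called higher or lower at an adjusted p under 0.05. A log2 fold change, given with its standard error (SE), is positive where ACT + NKTR-214 was higher and understates the change of genes near or below 1 FPKM. Over all genes 2940 (20.7%) were called higher and 1173 (8.28%) lower. Under scaling to the same 75th percentile in every library these counts were 3262 and 3710, and with quantile normalization, which moved the median of all genes by -0.14 (log2), 2690 and 4527. ACT + IL-2 replicate 2 had the lowest summed FPKM (176420, against 217581 to 246514 in the other libraries), and without it 2004 genes were higher and 2003 lower.

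The CCR4 ligand genes lie close together on chromosome 8 (GRCm38, RefSeq), *Ccl22* at 94745684 to 94751388 and *Ccl17* at 94809380 to 94812038, with 58.0 kb between them. *Ccr4* (114490316 to 114505476) and *Ccr8* (120092133 to 120094906) are both on chromosome 9. *Ccl11* (82057832 to 82062955), *Ccl1* (82176666 to 82179812), *Ccl9* (83572917 to 83578636) and *Ccl6* (83587886 to 83593087) are on chromosome 11, where *Ccl9* and *Ccl6* are 9.25 kb apart. *Ccl24* (135569935 to 135573123) is on chromosome 5. No exon of these 9 genes overlapped an exon of another gene in GENCODE vM21. Of the 50-base windows of their transcripts, 1.97% recurred in other genes for *Ccl9*, 0.465% for *Ccr4* and 0 for the other 7 genes.

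The start regions of *Ccl17* and *Ccl22* are printed because these genes share a receptor and a locus and, as given below, differed in how far their RNA rose. Each window runs 5′ to 3′ on the + strand from 250 bases before an annotated start site, for *Ccl17* not the outermost one of the gene, to 50 bases after it (RefSeq, GRCm38.p6), at chr8:94810203-94810502 for *Ccl17* and chr8:94745434-94745733 for *Ccl22*. Capitals mark TTC and GAA with 4 bases between them, the spacing known for STAT6, and with 3 bases between them, the spacing known for other STAT proteins.
Ccl17: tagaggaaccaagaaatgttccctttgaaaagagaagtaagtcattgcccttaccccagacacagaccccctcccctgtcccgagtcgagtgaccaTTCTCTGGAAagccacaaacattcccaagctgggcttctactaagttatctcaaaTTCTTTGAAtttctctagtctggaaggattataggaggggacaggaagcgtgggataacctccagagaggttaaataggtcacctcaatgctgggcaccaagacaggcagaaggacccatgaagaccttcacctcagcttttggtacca
Ccl22: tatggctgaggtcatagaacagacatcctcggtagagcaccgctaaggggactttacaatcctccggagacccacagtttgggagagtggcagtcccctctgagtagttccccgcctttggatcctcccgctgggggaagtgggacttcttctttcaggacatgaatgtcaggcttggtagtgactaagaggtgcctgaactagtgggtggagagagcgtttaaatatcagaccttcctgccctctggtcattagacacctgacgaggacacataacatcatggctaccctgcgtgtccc
Windows were found for 7 of the 9 genes, all but *Ccl11* and *Ccl24*, and both strands were searched. The 4-base spacing was present in that of *Ccl17* alone, beginning 154 bases before the start site, and in 6.95% of all 32851 windows of this length. The 3-base spacing was likewise present in that of *Ccl17* alone, beginning 99 bases before the start site, against 8.30% of all windows. Of the other motifs searched, AGATAA (11.2% of all windows) was found for *Ccl17* and *Ccr8*, TGANTCA (7.81%) for *Ccr4* and *Ccl9*, the kappa B motif (4.51%) for *Ccl9* and TTTC followed after 2 bases by TTTC (3.44%) for none of them. No 2 of these motifs overlapped in a window. Whether any of them bears on the difference between *Ccl17* and *Ccl22* was not tested.

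*Ccl17* was higher in every ACT + NKTR-214 tumor than in any ACT + IL-2 tumor. It had 1.30, 0.254 and 0.835 FPKM after IL-2 (replicates 1, 2 and 3), from 16, 3 and 9 reads. In the ACT + NKTR-214 replicates it had 11.3, 21.7 and 19.0 FPKM, from 144, 273 and 232 reads. The groups were far apart, and the lowest value of ACT + IL-2, in replicate 2, rests on few reads. Mean FPKM was 21.8-fold higher, and the log2 fold change was 3.35 (SE 0.24, limma adjusted p = 1.03e-07), which ranked 31 of 14172.

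*Ccl22*, the other CCR4 ligand, rose much less. Its values were 0.834, 0.942 and 1.19 FPKM in the ACT + IL-2 tumors (36, 39 and 45 reads) and 1.90, 2.29 and 1.63 FPKM in the ACT + NKTR-214 tumors (85, 101 and 70 reads). No ACT + IL-2 tumor reached the lowest ACT + NKTR-214 tumor, although the nearest were close. Mean FPKM was 1.96-fold higher, and the log2 fold change was 0.56 (SE 0.13, limma adjusted p = 0.00447). With quantile normalization the log2 fold change of *Ccl22* was 0.27 and no longer called (limma adjusted p = 0.125), and without a minimum FPKM the adjusted p was 0.0597 (limma).

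The receptor gene *Ccr4* was scarce in both groups and higher after NKTR-214. Its values were 0.0754, 0.0785 and 0.0344 FPKM in ACT + IL-2, from 5, 5 and 2 reads. They were 0.626, 0.811 and 0.363 FPKM in ACT + NKTR-214, from 43, 55 and 24 reads. The exact 95% Poisson interval of the highest ACT + IL-2 read number (1.62 to 11.7) lay below that of the lowest ACT + NKTR-214 read number (15.4 to 35.7), and such intervals cover counting error only. Mean FPKM was 9.57-fold higher. The log2 fold change was 0.58 (SE 0.104, limma adjusted p = 0.000548), and it was 2.06 when 0.1 was added in place of 1.

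**Figure D1:**
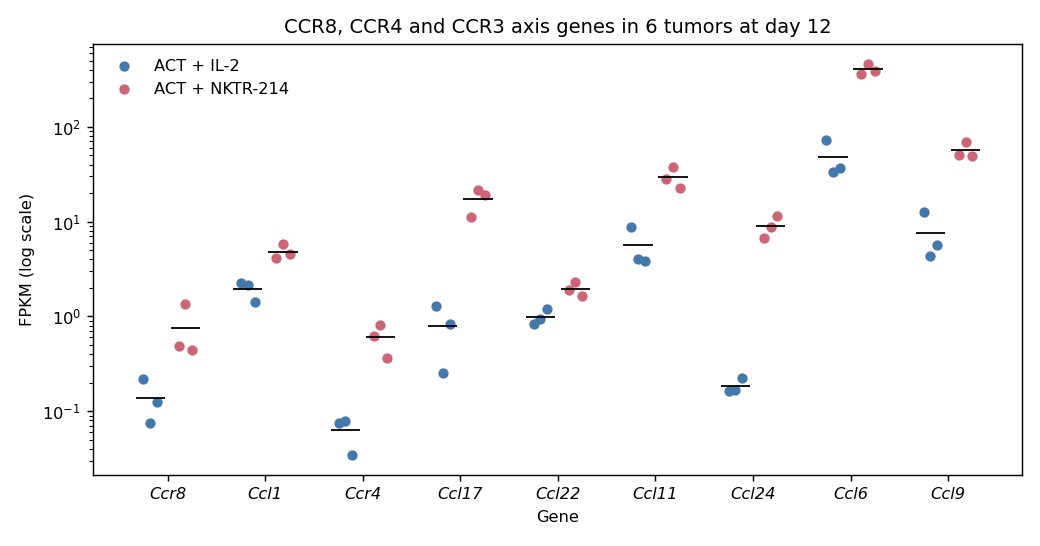
FPKM (log axis) of the 9 genes in each of the 3 ACT + IL-2 tumors (blue) and 3 ACT + NKTR-214 tumors (red), with a bar at each group's mean. In all 9 genes the red points lie above the blue points, with the widest gap for *Ccl24* (0.163 to 0.223 against 6.67 to 11.6 FPKM).

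*Ccr8* was also higher after NKTR-214, with few reads behind it. ACT + IL-2 tumors had 0.218, 0.0757 and 0.124 FPKM (6, 2 and 3 reads) and ACT + NKTR-214 tumors 0.491, 1.35 and 0.438 FPKM (14, 38 and 12 reads). ACT + NKTR-214 replicate 2 stood above the other tumors of its group. Mean FPKM was 5.46-fold higher, and the log2 fold change was 0.59 (SE 0.15, limma adjusted p = 0.0068). Without ACT + NKTR-214 replicate 2 the log2 fold change was 0.36 and still called, without ACT + IL-2 replicate 2 it was 0.55 and not called (limma adjusted p = 0.101), and without a minimum FPKM it was not called (limma adjusted p = 0.167).

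*Ccl1*, a ligand of CCR8 made by activated T cells, was more abundant than its receptor in every tumor. It had 2.23, 2.16 and 1.42 FPKM in ACT + IL-2 and 4.16, 5.75 and 4.57 FPKM in ACT + NKTR-214. The groups did not overlap, and ACT + IL-2 replicate 3 was the lowest tumor. Mean FPKM was 2.49-fold higher, with a log2 fold change of 0.99 (SE 0.17, limma adjusted p = 0.000298).

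The eotaxin *Ccl24* rested on a handful of reads in ACT + IL-2 and was plentiful in ACT + NKTR-214. The ACT + IL-2 tumors had 0.163, 0.1695 and 0.223 FPKM (5, 5 and 6 reads) and the ACT + NKTR-214 tumors 6.67, 8.79 and 11.6 FPKM (212, 276 and 354 reads). Values within each group were close together. Mean FPKM was 48.7-fold higher, the widest ratio among the 9 genes, while the log2 fold change was 3.05 (SE 0.17, limma adjusted p = 1.12e-08) and 4.97 when 0.1 was added in place of 1. *Ccl24* was also the only one of the 9 genes that passed when each gene's variance was taken from its own 6 values (adjusted p = 0.0419 from limma's fit without moderation).

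*Ccl11*, the other eotaxin, started from a higher level. It had 8.87, 4.07 and 3.88 FPKM in ACT + IL-2 and 27.9, 37.7 and 22.9 FPKM in ACT + NKTR-214, where 583 to 986 reads stood behind each value. Replicate 1 was the highest of the ACT + IL-2 tumors. Mean FPKM was 5.26-fold higher, and the log2 fold change was 2.26 (SE 0.24, limma adjusted p = 4.08e-06). *Ccr3*, which encodes the receptor of both eotaxins, had 0.0899, 0.0268 and 0.103 FPKM in ACT + IL-2 (7, 2 and 7 reads) and 0.149, 0.289 and 0.361 FPKM in ACT + NKTR-214 (12, 23 and 28 reads). It reached the minimum only through the ACT + NKTR-214 tumors. Its log2 fold change of 0.24 (95% interval 0.048 to 0.42) missed the threshold (limma adjusted p = 0.0571).

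*Ccl6* and *Ccl9* were the most abundant of the 9 genes. *Ccl6* had 72.0, 33.5 and 36.9 FPKM in the ACT + IL-2 tumors and 361, 464 and 384 FPKM in the ACT + NKTR-214 tumors. Its log2 fold change was 3.14 (SE 0.24, limma adjusted p = 2.36e-07), and it made up 73.2 to 77.8% of the summed FPKM of the 9 genes in every tumor. *Ccl9* had 12.7, 4.36 and 5.60 FPKM in ACT + IL-2 and 50.6, 69.5 and 49.3 FPKM in ACT + NKTR-214, and the log2 fold change was 2.85 (SE 0.26, limma adjusted p = 1.03e-06). In both genes the highest value of ACT + IL-2 was in replicate 1 and that of ACT + NKTR-214 in replicate 2. *Ccr1*, which encodes their receptor, went from 2.69 ± 1.24 to 16.2 ± 2.40 FPKM (SD, n = 3 each), and the log2 fold change was 2.27 (limma adjusted p = 9.22e-07).

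All 9 genes were thus called higher, against 20.7% of all genes tested. In all 9 the lowest ACT + NKTR-214 tumor exceeded the highest ACT + IL-2 tumor, against 27.1% of all genes tested, while 15.3% of all genes were lower without overlap. Their median log2 fold change was 2.26, beside 0.045 for all genes. The order of their changes depends on the constant added to FPKM. With 1 added, *Ccr4* (0.58) and *Ccr8* (0.59) lay below *Ccl1* (0.99) and beside *Ccl22* (0.56). With 0.1 added, *Ccr4* (2.06) and *Ccr8* (1.73) lay above *Ccl1* (1.29) and *Ccl22* (0.91) but below *Ccl6* (3.16), *Ccl9* (3.02) and *Ccl11* (2.45). The ratio of mean FPKM was larger for *Ccr4* (9.57) than for *Ccl6* (8.49), *Ccl9* (7.47) and *Ccl11* (5.26). Its order against *Ccl6* and *Ccl9* depends on ACT + IL-2 replicate 1, the highest tumor of that group for both. The direction of all 9 was the same under either other scaling. Leaving out a tumor could not reverse it, since the groups did not overlap.

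The order of the levels changed between the groups. In the ACT + IL-2 tumors mean FPKM ran from *Ccl6* (47.5) through *Ccl9* (7.56), *Ccl11* (5.61), *Ccl1* (1.94), *Ccl22* (0.989), *Ccl17* (0.797), *Ccl24* (0.185) and *Ccr8* (0.139) to *Ccr4* (0.0628). The neighbours *Ccl9* and *Ccl11*, *Ccl22* and *Ccl17*, *Ccl24* and *Ccr8*, and *Ccr8* and *Ccr4* overlapped there. After NKTR-214 the order was *Ccl6* (403), *Ccl9* (56.5), *Ccl11* (29.5), *Ccl17* (17.3), *Ccl24* (9.01), *Ccl1* (4.83), *Ccl22* (1.94), *Ccr8* (0.760) and *Ccr4* (0.600 FPKM), and the tumors overlapped for *Ccl17* with *Ccl24* and for *Ccr8* with *Ccr4*. *Ccl17* and *Ccl24* thus passed *Ccl1* and *Ccl22*.

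Among 10 further genes of these axes, 9 were tested, 6 were called higher (5 with quantile normalization) and 0 lower, and their median log2 fold change was 1.42. *Ccl8*, which in the mouse also acts through CCR8, had 126, 62.3 and 38.4 FPKM in ACT + IL-2 and 250, 337 and 269 FPKM in ACT + NKTR-214, and the log2 fold change was 2.06 (limma adjusted p = 0.000105). *Ccl5* and *Ccl7*, which can bind CCR3 besides other receptors, had log2 fold changes of 2.32 and 1.62 (limma adjusted p = 4.2e-05 and 7.81e-06). *Dpp4*, a surface protease that trims the amino end of chemokines such as CCL11 and CCL22, went from 0.571 ± 0.369 to 3.25 ± 1.15 FPKM (SD, n = 3 each), and the log2 fold change was 1.42 (limma adjusted p = 4.94e-05). *Ackr1*, an atypical receptor that binds chemokines without signaling through G proteins, rose by 0.71 (log2, limma adjusted p = 0.00742), with 25.7% of its exon bases shared with *Cadm3*. The scavenger receptor gene *Ackr2* (log2 fold change 0.16, 95% interval -0.056 to 0.37) and the CCR10 and CCR3 ligand gene *Ccl28* (0.053, -0.12 to 0.23) did not pass (limma adjusted p = 0.266 and 0.668). *Ccl26* was listed at 0 in every tumor.

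Genes that induce or carry type 2 responses were taken as a list of 13, of which 11 were tested, 10 were called higher and 0 lower (median log2 fold change 0.90). *Il13* and *Il5* averaged under 0.1 FPKM in ACT + IL-2 and were tested only because of their levels in ACT + NKTR-214. *Il13*, a cytokine that induces *Ccl17* and the eotaxins, had 0.0695, 0 and 0 FPKM in ACT + IL-2 (2 reads in all) and 0.806, 0.918 and 1.01 FPKM in ACT + NKTR-214 (24, 27 and 29 reads). *Il4* had 0, 0 and 0.0814 FPKM in ACT + IL-2 and 0, 0.2096 and 0.143 FPKM in ACT + NKTR-214, and was too low to test. *Il4ra*, the receptor chain shared by both cytokines, went from 5.01 to 14.6 FPKM in ACT + IL-2 to 28.1 to 37.3 FPKM in ACT + NKTR-214, and *Stat6*, which carries their signal, from 22.01 to 29.9 FPKM to 34.0 to 37.8 FPKM, with log2 fold changes of 1.90 and 0.43 (limma adjusted p = 5.57e-05 and 0.0431). *Irf4*, a transcription factor of activated lymphocytes and dendritic cells, rose by 1.74 (log2) and *Il1rl1*, the receptor for IL-33, by 0.97, limma giving adjusted p-values of 4.9e-06 and 9.11e-05. *Csf2*, which encodes GM-CSF, rose by 0.76 (limma adjusted p = 7.22e-05). *Tslp*, an epithelial inducer of dendritic cell *Ccl17*, had 0.077 to 0.185 FPKM in ACT + IL-2 and 0.107 to 0.186 FPKM in ACT + NKTR-214, and its log2 fold change was -0.012 (95% interval -0.19 to 0.16).

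**Figure D2:**
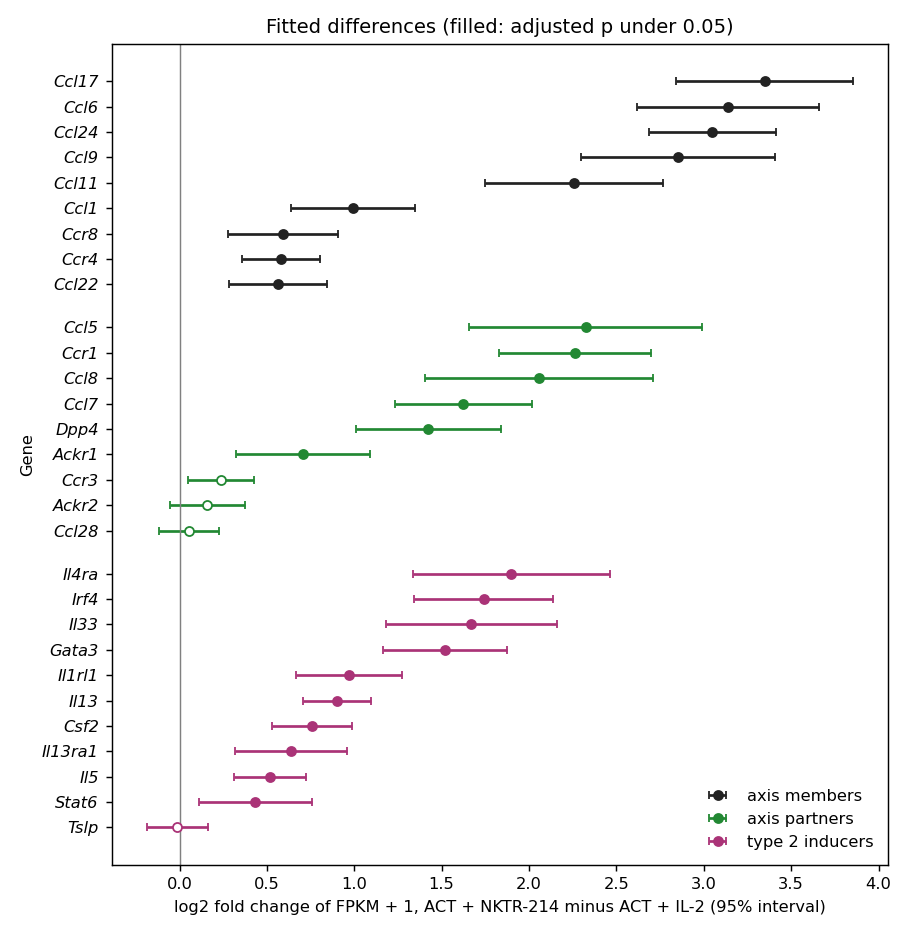
Log2 fold change of FPKM + 1 (ACT + NKTR-214 minus ACT + IL-2, x axis) with its 95% interval from limma for the 9 genes (black), further axis genes (green) and type 2 inducers (purple). Filled points passed an adjusted p of 0.05, and the open points are *Ccr3*, *Ackr2*, *Ccl28* and *Tslp*.

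Whether genes of one axis differed by unequal amounts was asked from the ratio of their values within each tumor, on log2 of (FPKM + 0.1). For each of 10 pairs the groups were compared with an exact two-sided permutation test. With 3 against 3 tumors it cannot give a p below 0.1, so that no pair could pass 0.05. The lowest permutation p after Benjamini-Hochberg adjustment over the 10 pairs was 0.125. The ratio of *Ccl17* to *Ccl22* was 1.56, 0.270 and 0.702 in the ACT + IL-2 tumors and 5.94, 9.48 and 11.6 in the ACT + NKTR-214 tumors. The mean log2 ratios differed by 3.53 (exact permutation p = 0.1), with every ACT + NKTR-214 tumor above every ACT + IL-2 tumor. For *Ccl11* to *Ccl24* the ratio was 54.5, 24.0 and 17.4 against 4.19, 4.29 and 1.98, a log2 difference of -2.52 (exact permutation p = 0.1) with no overlap, which was -0.79 with 1 and -3.03 with 0.01 added. *Ccl6* to *Ccl9* gave overlapping ratios of 5.66 to 7.67 and 6.68 to 7.78 (log2 difference 0.14, exact permutation p = 0.4), and the difference was 0.039 without ACT + IL-2 replicate 1, 0.25 without ACT + IL-2 replicate 2, 0.086 without ACT + NKTR-214 replicate 3 and 0.28 with 1 added. *Ccl1* to *Ccl8* was lower after NKTR-214 without overlap, by -0.78 on the log2 scale (exact permutation p = 0.1).

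The receptors were set against *Foxp3*, the transcription factor that defines regulatory T cells, and against *Cd3e*, a chain of the T cell receptor complex. *Foxp3* had 2.46, 2.12 and 2.06 FPKM in ACT + IL-2 and 2.18, 2.44 and 2.00 FPKM in ACT + NKTR-214, a log2 fold change of -0.0017 (95% interval -0.29 to 0.29, limma adjusted p = 0.996). That holds for FPKM as deposited, and the values of *Foxp3* under the other scalings are not given here. *Cd3e* went from 3.09 ± 1.91 to 45.4 ± 16.8 FPKM (SD, n = 3 each), and the log2 fold change was 3.53 (limma adjusted p = 3.64e-07). Relative to *Foxp3*, *Ccr8* was higher after NKTR-214 by 1.74 and *Ccr4* by 2.07 on the log2 scale. Relative to *Cd3e*, *Ccr8* was lower by -2.18 and *Ccr4* by -1.85. In each of these 4 comparisons the groups did not overlap (exact permutation p = 0.1). The sizes depend on the constant, since few reads stand behind both receptors in ACT + IL-2. With 1 and with 0.01 added in place of 0.1, *Ccr8* to *Foxp3* differed by 0.59 and 2.29, *Ccr4* to *Foxp3* by 0.58 and 3.06, *Ccr8* to *Cd3e* by -2.93 and -1.67 and *Ccr4* to *Cd3e* by -2.94 and -0.90. Which cells carried the receptors was not tested.

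**Figure D3:**
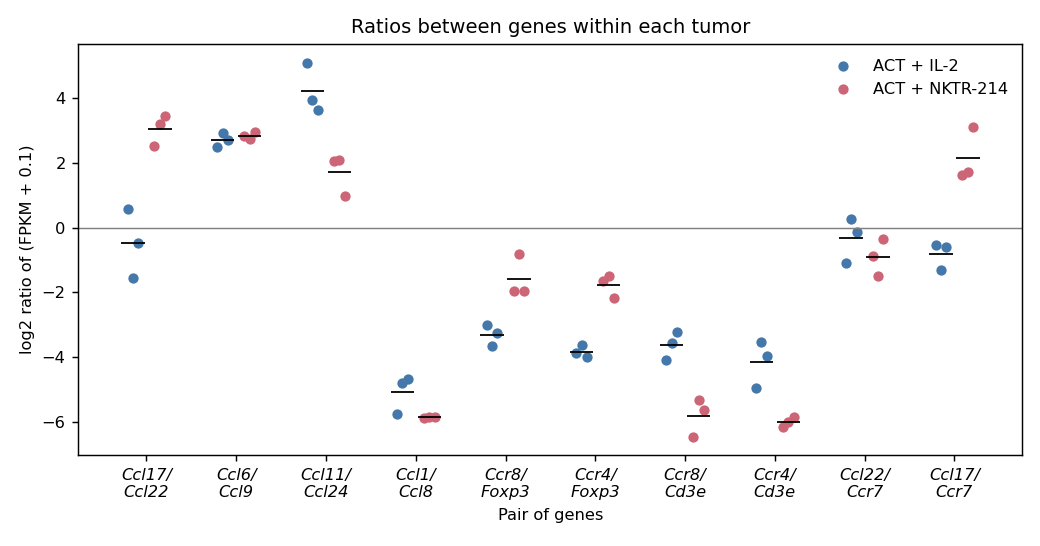
Log2 ratio of (FPKM + 0.1) of 2 genes within each tumor (y axis) for the 10 pairs (x axis), with a bar at each group's mean. Blue and red points (ACT + IL-2 and ACT + NKTR-214) overlap for *Ccl6*/*Ccl9* and *Ccl22*/*Ccr7* and are apart for the other 8 pairs.

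The CCR4 ligands were also set against *Ccr7*, a homing receptor of mature dendritic cells that naive and memory T cells carry too. *Ccr7* had 1.91, 0.775 and 1.31 FPKM in ACT + IL-2 and 3.62, 6.59 and 2.09 FPKM in ACT + NKTR-214 (log2 fold change 1.06, limma adjusted p = 0.00519). It was among the 8 of 14 genes used for mature dendritic cells that were called higher, while 6 were not called. The ratio of *Ccl22* to *Ccr7* was 0.436 to 1.22 in ACT + IL-2 and 0.347 to 0.779 in ACT + NKTR-214, a log2 difference of -0.58 with overlapping tumors (exact permutation p = 0.4). It was -0.29 without ACT + IL-2 replicate 2 or without ACT + NKTR-214 replicate 2, and -0.97 without ACT + IL-2 replicate 1. *Ccl17* to *Ccr7* was 0.328 to 0.680 against 3.13 to 9.06, a log2 difference of 2.95 without overlap (exact permutation p = 0.1).

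Markers were also summed for cells that can make these chemokines or carry their receptors. All 13 macrophage and monocyte genes tested were called higher, 12 of them without overlap and 12 called under either other scaling (median log2 fold change 1.67, summed level 414 to 1202 FPKM in ACT + IL-2 and 1889 to 3423 FPKM in ACT + NKTR-214), as were all 9 genes of alternatively activated macrophages (median 2.31, 46.0 to 112 against 437 to 645 FPKM) and all 10 pan T cell genes (median 3.38, 13.6 to 31.5 against 153 to 336 FPKM). Of 13 genes used for regulatory T cells, 9 were called higher and 0 lower (median 1.45, 32.5 to 50.9 against 135 to 198 FPKM), and those that rose include *Il2ra*, *Ctla4* and *Icos*, which activated T cells of other kinds also express. *Foxp3*, *Ikzf2*, *Il10* and *Nrp1* were not called, and with quantile normalization 1 gene of the list was called lower. Of 14 genes used for mature dendritic cells, 8 were called higher (7 with quantile normalization) and 0 lower (median 0.85, 36.6 to 61.9 against 102 to 120 FPKM). *Tnfrsf11b* weighed most in these sums, with a mean of 45.6 FPKM after NKTR-214 and 12.4 FPKM after IL-2. *Fscn1* (log2 fold change 0.21), *Cd40* (0.54), *Il4i1* (0.13), *Tmem150c* (-0.060) and *Il12b* (-0.072) were not called. The summed level thus does not show that the list rose as a whole. *Cacnb3* of that list was lower in every ACT + NKTR-214 tumor than in any ACT + IL-2 tumor without being called (limma adjusted p = 0.0764), and 1 gene of the list was called lower with either other scaling. The part of these cells in the rise of the chemokines was not tested.

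Eosinophil genes, which bear on the eotaxins, were close to 0 in ACT + IL-2. Of 9 genes, 5 were tested and all 5 called higher (median log2 fold change 1.30), with a summed level of 0.619 to 1.17 FPKM in ACT + IL-2 and 7.01 to 12.1 FPKM in ACT + NKTR-214. Of these 5, *Siglecf*, *Prg2* and *Ear6* averaged under 0.1 FPKM in ACT + IL-2 and passed the minimum through the ACT + NKTR-214 tumors. *Siglecf*, a surface receptor of eosinophils, had 11 reads over the ACT + IL-2 tumors and 132 over the ACT + NKTR-214 tumors. *Epx*, the eosinophil peroxidase, had 2 and 26 reads and was too low to test. So were *Prg3*, *Ear1* and *Il5ra*, whose tumors overlapped between the groups. Fibroblasts, a source of *Ccl11*, had 8 of 10 genes called higher and 0 lower (median 1.02, 247 to 704 against 772 to 1397 FPKM), and 5 with either other scaling. The widest change on that list was that of *Thy1* (log2 fold change 3.16, mean 17.3 against 153 FPKM), which in the mouse also marks T cells. Neutrophil genes numbered 5 tested of 8, all 5 called higher (median 1.15, 4.11 to 9.53 against 22.4 to 50.8 FPKM). *Ly6g*, *Mpo* and *Elane* were too low to test, with overlapping tumors.

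The remaining lists describe the tissue. Of 7 melanocyte genes, 5 were called lower (7 under either other scaling) and 0 higher (median -0.82, 5413 to 6933 against 2664 to 3763 FPKM). Of 6 skin keratinocyte genes only 2 were tested and 0 called (0.153 to 0.735 against 0.154 to 1.47 FPKM), and *Krt1* was at 0 in every tumor. The last list of 7 genes joined skeletal muscle and adipose tissue (summed level 66.2 to 106 against 36.9 to 138 FPKM). Its 4 muscle genes (*Acta1*, *Ckm*, *Myh4* and *Tnnt3*) were called lower with overlapping tumors, and its 3 adipose genes were not called, with log2 fold changes of 0.87 for *Adipoq*, 0.40 for *Plin1* and 0.97 for *Cfd*.

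**Figure D4:**
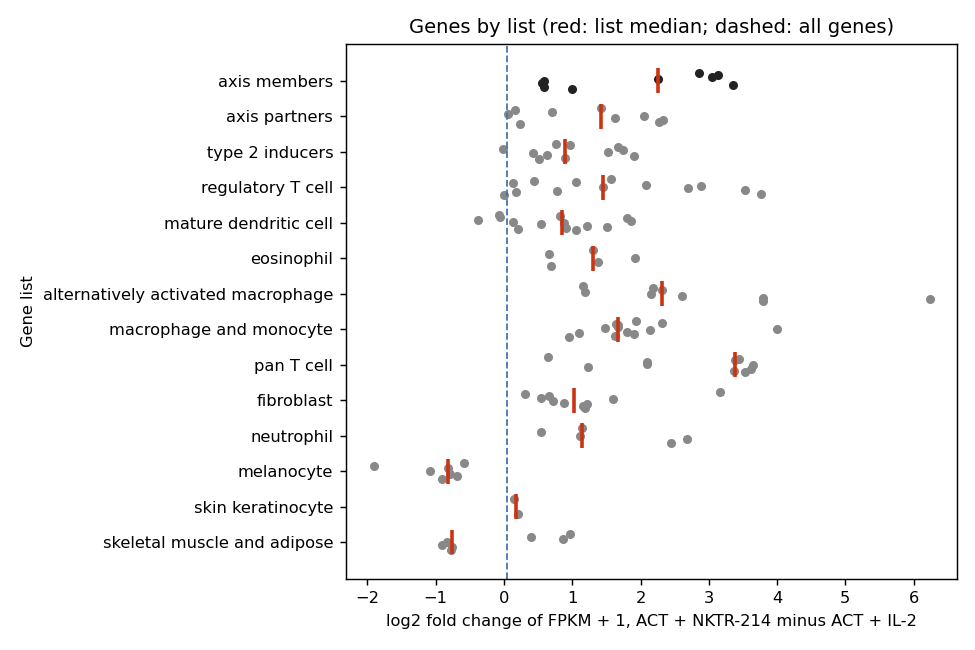
Log2 fold change of FPKM + 1 (x axis) of each tested gene of the 9 axis genes (black) and of the other lists (grey), with a red bar at each list's median and a dashed line at the median of all genes (0.045). The median of the 9 genes (2.26) lies near that of alternatively activated macrophage genes (2.31) and below that of pan T cell genes (3.38).

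The genes whose profile over the 6 tumors was nearest to each of these genes were found by Euclidean distance between centred log2(FPKM + 1) values, among tested genes with a mean of at least 1 FPKM. This is a description, since any gene with a like difference between the groups is near, and the added 1 draws genes below 1 FPKM together. *Ccl17* was nearest to *F7* (distance 0.62), *Ccl6* (0.696) and *Mmp12* (0.81), and *Ccl24* to *Rnase2a* (0.38), *Slc7a2* (0.46) and *Zbtb32* (0.54). *Ccl6* was nearest to *Pla2g7* (0.35), *Srgn* (0.41) and *Ccl9* (0.43), and *Ccl9* to *Srgn* (0.26), *Itgb7* (0.27) and *Ctss* (0.402). *Ccl11* was nearest to *H2-Q6* (0.0903), *H2-Q8* (0.0924) and *Lpxn* (0.12), of which the first pair are near-identical genes whose reads are hard to tell apart. For *Ccl1* the nearest were *Cdh1*, *Adgrg3* and *Pnpla7* (0.19 to 0.26), for *Ccl22* *Atg16l2*, *Rhebl1* and *Carns1* (0.12 to 0.14) and for *Ccr8* *Gpr157*, *Arhgap22* and *Phf11c* (0.11 to 0.25).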

How the data were processed

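RNA-seq was done on 6 tumors, 3 per group. Per the labels and the study's methods, the authors mapped 50-base single-end reads with HISAT2 2.0.4 to GRCm38, used HTSeq to count reads over genes and deposited them as linear FPKM. The gene annotation is not given in the sources used here. Groups and replicate numbers were taken from sample titles, and the 9 genes and all gene lists and motifs were chosen with earlier results of these data known.

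Tests used log2(FPKM + 1). Entries with a mean of at least 0.1 FPKM were tested with limma 3.58.1 in R 4.3.3 (lmFit, eBayes with an intensity trend, Benjamini-Hochberg adjustment, threshold 0.05). No block was used, since the numbers tie no tumor of one group to a tumor of the other. The labels number the tumors of a group, and the study's text calls them biological replicates. On simulated data of 14172 genes the fit called 83 of 100 genes changed 2-fold, 98 of 100 changed 4-fold and 15 unchanged genes. The changed genes were drawn from genes of higher level, and the spreads were shuffled between genes. The simulation thus does not cover genes of few reads such as *Ccr4* and *Ccr8*.

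The deposited FPKM table holds no counts. Reads were recovered as the smallest whole numbers that, after correction for relative depth, lay within 0.1 of every value of a gene. This succeeded for 98.6% of 1962 genes with low values. Read numbers are given only where named, and those of *Il4* and *Ccl1* were left out because, with the exon lengths of GENCODE vM21, the library totals they implied were far below that from *Ccl17* in the same library. Ratios were compared with exact permutation tests (scipy 1.17.1). Other settings tried were 0.1 added in place of 1, a minimum of 1 FPKM and none, 75th percentile scaling, quantile normalization, eBayes without the trend, unmoderated variance, a replicate block, other pseudocounts for ratios (1 and 0.01) and each tumor left out. Genes named are the 9 axis genes, tested genes of the axis and inducer lists, defining markers and the 3 nearest profiles of each gene, of which those of *Ccr4* are not reported here. *Ccl26*, *Il4*, *Krt1* and other marker genes named beside a list's count were added after their values were seen.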

Additional observations from a re-analysis of the deposited data

How the results depend on the processing

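The direction of all 9 genes, and of all 10 ratios, was the same in every alternative that gave a value, although the size of several ratios moved by over 1.5 times with the constant added. For genes and ratios whose tumors did not overlap, leaving out 1 tumor could not reverse the direction. With a minimum of 1 FPKM *Ccr4* and *Ccr8* were not tested. With each gene's variance taken from its own 6 values, 1 of the 9 genes (*Ccl24*) passed, and 101 genes were higher and 27 lower over the table. The log2 fold changes that no longer passed there were 0.99 for *Ccl1* (adjusted p = 0.0652 from limma's fit without moderation), 0.59 for *Ccr8* (0.176), 3.35 for *Ccl17* (0.0549), 0.56 for *Ccl22* (0.0739), 0.58 for *Ccr4* (0.0722), 2.26 for *Ccl11* (0.0628), 3.14 for *Ccl6* (0.0552) and 2.85 for *Ccl9* (0.0608). Without a minimum FPKM 1193 genes were higher and 395 lower, and *Ccr8* (0.59, limma adjusted p = 0.167) and *Ccl22* (0.56, 0.0597) did not pass. *Ccl22* did not pass with quantile normalization either (0.27, limma adjusted p = 0.125). Genes called lower numbered 3710 under 75th percentile scaling and 4527 under quantile normalization. With 1 tumor left out, 8 or 9 of the 9 genes passed, the higher genes numbered 2004 to 3480 and the lower genes 635 (without ACT + IL-2 replicate 3) to 2003 (without ACT + IL-2 replicate 2), with 682 without ACT + NKTR-214 replicate 2. The log2 fold change of *Ccr8* then ran from 0.36 to 0.72. Over all alternatives the adjusted p from limma ran from 2.27e-09 to 0.176 for *Ccr8* and from 0.00025 to 0.125 for *Ccl22*. The causes of these shifts were not tested.

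Deviations from the group means did not go together for replicates 1 and 2 (correlations across genes of -0.21 and -0.067) and did for replicate 3 (0.40), while the deviations of ACT + IL-2 replicate 1 correlated best with those of ACT + NKTR-214 replicate 2 (0.59). With the replicate block 3090 genes were higher and 1227 lower, and all 9 genes stayed called. Depth limits *Ccr4*, *Ccr8* and *Ccl24* in ACT + IL-2, where 2 to 6 reads stood behind each value.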
